A study of Mus musculus with 40 samples.

Results

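The genes described here are 10 genes of sodium, chloride and potassium transport in the distal nephron of the mouse: Slc12a1, Slc12a3, Scnn1a, Scnn1b, Scnn1g, Kcnj1, Kcnj10, Wnk1, Wnk4 and Stk39. They form a list given by gene name, and all 10 were found among the 28467 genes of the bulk table and among the 32285 genes of the nucleus table. The tissue was the right kidney of male C57BL/6 mice of 8 to 12 weeks of age, none with a labelled genetic change, taken 24, 48 or 72 h after surgery. The surgery was either removal of the left kidney, called unilateral nephrectomy, or a sham procedure that left both kidneys in place. Bulk RNA-seq of a kidney cross section covered 6 sham and 6 nephrectomy mice at each time, 36 libraries in all. A separate set of 4 mice, 2 sham and 2 nephrectomised, gave single-nucleus RNA-seq at 24 h. All mice had anaesthesia and surgery, so no group is of unoperated animals. By the labels, batch 1 holds all bulk libraries of 24 h and batch 2 all those of 48 and 72 h. Nucleus batches 3 and 4 each hold a sham and a nephrectomised mouse.

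The distal nephron sets the final salt and potassium content of urine. Filtered salt enters cells of the thick ascending limb through the cotransporter NKCC2, cells of the distal convoluted tubule through the cotransporter NCC, and cells of the connecting tubule and collecting duct through the epithelial sodium channel ENaC. A kinase cascade, in which WNK kinases act on the kinase SPAK and SPAK phosphorylates NCC and NKCC2, adjusts this uptake, and potassium channels on the luminal and basolateral sides return or sense potassium. Much of this control acts on the proteins, which were not measured here.

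Slc12a1 encodes NKCC2, the target of loop diuretics, and Slc12a3 encodes NCC, the target of thiazides. Scnn1a, Scnn1b and Scnn1g encode the alpha, beta and gamma subunits of ENaC. Kcnj1 encodes ROMK, the potassium channel of the luminal membrane from the thick limb onward, and Kcnj10 encodes Kir4.1, a basolateral potassium channel. Wnk1 and Wnk4 encode WNK kinases, and Stk39 encodes SPAK. On the mouse build mm10, with the gene models of GENCODE M21, Slc12a1 (ENSMUSG00000027202) lies on chromosome 2 from 125152505 to 125230002 on the plus strand. Slc12a3 (ENSMUSG00000031766) lies on chromosome 8 from 94329201 to 94366214, and Scnn1a (ENSMUSG00000030340) on chromosome 6 from 125320659 to 125344943. Scnn1g spans chromosome 7 from 121734479 to 121768475, and Scnn1b lies on the same strand of the same chromosome from 121865038 to 121918514. Wnk4 spans chromosome 11 from 101260567 to 101277409.

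RefSeq promoter windows on GRCm38.p6 were held for 9 of the 10 genes, all but Scnn1a. The 150 bases just before the GENCODE start are printed for 4 of them: the 2 cotransporter genes, whose transcripts mark different tubule segments in the nuclei, and the 2 ENaC subunit genes whose levels were most alike across cell classes. All 4 are on the plus strand, at chr2:125152355-125152504, chr8:94329051-94329200, chr7:121864888-121865037 and chr7:121734329-121734478 in the order shown. Capitals mark exact matches, on either strand, to any of 4 motifs: the TATA box TATAAA, the GC box CCGCCC, the steroid receptor half-site AGAACA and the HNF1 half-site GTTAAT.
Slc12a1: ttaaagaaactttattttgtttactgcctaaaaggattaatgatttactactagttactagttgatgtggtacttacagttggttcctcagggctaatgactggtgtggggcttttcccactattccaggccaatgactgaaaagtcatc
Slc12a3: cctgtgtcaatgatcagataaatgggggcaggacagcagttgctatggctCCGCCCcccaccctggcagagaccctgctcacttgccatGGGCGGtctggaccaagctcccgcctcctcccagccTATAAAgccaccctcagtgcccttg
Scnn1b: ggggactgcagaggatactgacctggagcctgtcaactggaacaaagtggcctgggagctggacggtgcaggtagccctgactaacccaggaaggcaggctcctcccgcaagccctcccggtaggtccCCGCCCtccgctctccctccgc
Scnn1g: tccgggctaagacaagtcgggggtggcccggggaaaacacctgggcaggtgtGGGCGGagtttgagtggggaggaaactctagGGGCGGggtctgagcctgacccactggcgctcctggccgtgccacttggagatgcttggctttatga
Slc12a3 held 1 TATA box and 2 GC boxes, Scnn1b held 1 GC box, Scnn1g held 2 GC boxes, and Slc12a1 held no match to any of the 4. In the 150 bases before the start in all 32851 RefSeq promoter windows, TATAAA occurred in 7.57%, CCGCCC in 28.6%, AGAACA in 9.62% and GTTAAT in 3.71%. None of the motifs overlaps another in these sequences. A match is a match of letters and not a measured binding site.

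Bulk libraries held 14870000 to 24110000 counts, rounded to 4 digits. A profile score was computed for each library from 271 pseudogenes, on a line from the 48 and 72 h shams at 0 to the 24 h shams at 1, with each library left out of its own reference. Its mean was 0.98 in the 24 h shams and 0.02 and 0.00 in the 48 and 72 h shams. It was 0.93 to 1.03 in the 24 h shams, 0.67 to 0.88 in the 24 h nephrectomy libraries, 0.64 to 0.72 in 48 h nephrectomy replicates 1 to 5, and 0.01 in 48 h nephrectomy replicate 6. In the other later libraries it was between −0.05 and 0.09. The share of counts from mitochondrially encoded genes was 25.8% to 26.4% in 48 h nephrectomy replicates 1 to 5 against 15.2% in replicate 6 and 14.0% to 15.5% in the 48 h shams. Replicate 6 thus stood with the shams on both measures, and 48 h results are given with it, without it and from it alone. What the score reflects was not tested. Summed markers of adrenal cortex were at most 0.08 CPM (counts per 1000000, scaled by TMM factors) in any bulk library. Summed adipose markers reached 528 CPM in 24 h nephrectomy replicate 4 and 194 CPM in 48 h sham replicate 3.

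At 24 h after nephrectomy Kcnj1 rose, Scnn1a and Wnk4 fell, and the other 7 genes, the 2 cotransporters included, did not pass the test. The test was edgeR's quasi-likelihood test over all 14104 genes that passed its filter, and genes with a p under 0.05 after Benjamini-Hochberg adjustment count as called. By that rule 3 of the 10 genes were called against 27.3% of all genes tested, so the share among the 10 was close to that of the transcriptome. The 10 genes had a median log2 fold change of 0.00 and all tested genes one of 0.01. In bulk RNA, fewer cells of a type and less RNA per cell cannot be told apart.

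Scnn1a was 163 CPM in the lowest 24 h sham, 167 CPM at the median and 175 CPM in the highest, and 122, 130 and 162 CPM in the nephrectomy libraries. The groups did not overlap, by a narrow margin: nephrectomy replicate 6, whose profile score of 0.88 was nearest to the shams, gave the highest of the nephrectomy values. No other of the 10 genes had groups without overlap at 24 h, against 10.3% of all genes tested. Scnn1a fell by 0.30 in log2 terms (SE 0.07, adjusted p = 0.0040). Wnk4 was 155 to 192 CPM in the shams, with a median of 177, and 121 to 170 CPM after nephrectomy, with a median of 141. All 6 nephrectomy values lay below the sham mean, but the ranges overlapped. Wnk4 fell by 0.28 in log2 terms (SE 0.07, adjusted p = 0.011). Kcnj1 was 204 to 255 CPM in the shams, with a median of 234, and 241 to 289 CPM after nephrectomy, with a median of 275. All 6 nephrectomy values lay above the sham mean, and the log2 fold change was 0.23 (SE 0.06, adjusted p = 0.014).

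These 3 calls kept a p under the threshold without any single 24 h library. The profile scores of the 24 h groups did not overlap either, at 0.93 to 1.03 in shams and 0.67 to 0.88 after nephrectomy. With the score as a covariate in the 24 h fit no member was called, against 0.510% of all genes. The log2 fold changes were then 0.07 for Scnn1a (SE 0.12), −0.00 for Wnk4 (SE 0.16) and 0.26 for Kcnj1 (SE 0.15). These errors were wider than the 0.07, 0.07 and 0.06 without the score. With the groups apart in score, surgery and score are hard to tell apart at 24 h, and this fit cannot decide between them. With the score in a fit of all 36 libraries, an alternative added after the data were seen, Kcnj1 was the only called member, at a log2 fold change of 0.30 (adjusted p = 0.039), and Scnn1a and Wnk4 were at −0.09 and −0.11. The part of the score in these results was not tested further.

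The cotransporter genes at 24 h were spread widely in both groups. Slc12a1 was 993 to 1894 CPM in the shams and 1224 to 1839 CPM after nephrectomy, and its log2 fold change was 0.02 (SE 0.13, adjusted p = 0.91). Slc12a3 was 428 to 775 CPM in the shams and 520 to 762 CPM after nephrectomy, at −0.02 (SE 0.12, adjusted p = 0.92). Each range covered most of the other, and the spread between mice of a group was far above the difference between groups. Summed markers of the thick limb were 4134 to 5846 CPM in shams and 4149 to 5483 CPM after nephrectomy, and those of the distal convoluted tubule were 354 to 456 and 326 to 414 CPM. The other ENaC subunit genes differed by −0.05 for Scnn1b (SE 0.07) and 0.03 for Scnn1g (SE 0.07) on the log2 scale. Wnk1 was at −0.09 (SE 0.07), Stk39 at 0.08 (SE 0.10) and Kcnj10 at 0.02 (SE 0.06). Of 5 connecting tubule markers 3 were called higher at 24 h, beside 14.2% of all genes. Their summed levels were 1775 to 2381 CPM in shams and 2098 to 2484 CPM after nephrectomy. Among 6 principal cell markers 1 was called higher and none lower, with sums of 246 to 427 CPM in shams and 311 to 517 CPM after nephrectomy. Scnn1b and Scnn1g, which were highest in the connecting tubule class of the nuclei, were not called.

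**Figure D1:**
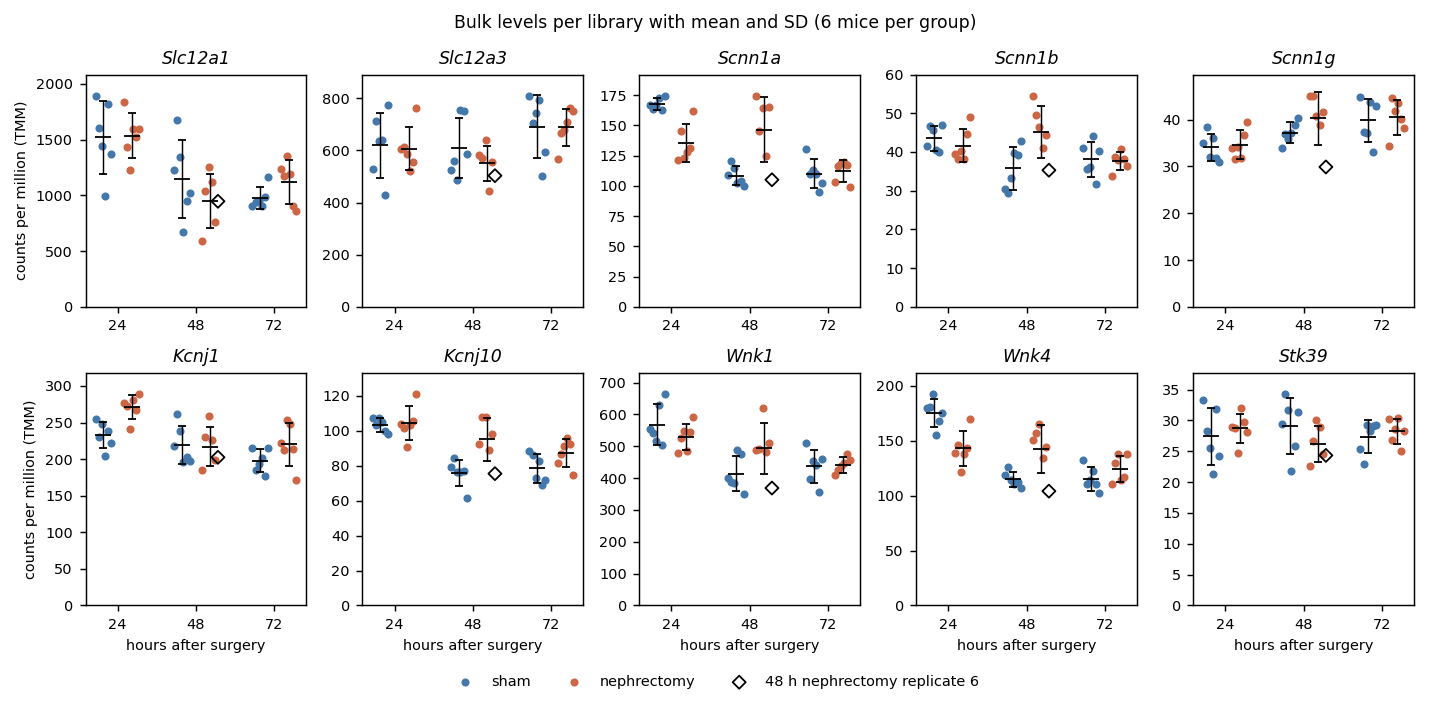
Level of each of the 10 genes in every bulk library (y axis, TMM-normalized CPM from 0) by hours after surgery (x axis), with sham in blue and nephrectomy in orange, and the mean and SD of 6 mice per group in black. The open diamond marks 48 h nephrectomy replicate 6, which lies with or below the shams for Scnn1a, Scnn1b, Scnn1g, Kcnj10, Wnk1 and Wnk4.

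At 48 h the same test called 4 of the 10 genes, all higher after nephrectomy: Scnn1a, Scnn1b, Kcnj10 and Wnk4. The background was 32.9% of 14280 genes called, and 16.9% called higher. The median log2 fold change was 0.16 over the 10 genes and −0.04 over all genes tested. None of the 10 had groups without overlap, against 11.2% of all genes, and for Scnn1a, Kcnj10 and Wnk4 replicate 6 was the only nephrectomy library within or below the sham range.

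Scnn1a was 99.7 to 120 CPM in the 48 h shams. After nephrectomy it was 125 to 174 CPM in replicates 1 to 5 and 105 CPM in replicate 6. The first 5 thus lay above every sham and the sixth inside the sham range. Over all 6 the log2 fold change was 0.41 (SE 0.11, adjusted p = 0.011). Kcnj10 showed the same division, at 61.8 to 84.5 CPM in shams, 88.9 to 108 CPM in nephrectomy replicates 1 to 5 and 75.5 CPM in replicate 6. Its log2 fold change was 0.31 (SE 0.09, adjusted p = 0.021). Wnk4 was 106 to 126 CPM in shams, 134 to 165 CPM in nephrectomy replicates 1 to 5 and 104 CPM in replicate 6, below all shams. Its log2 fold change was 0.30 (SE 0.09, adjusted p = 0.028). Scnn1b was 29.3 to 42.9 CPM in shams, 41.1 to 54.6 CPM in replicates 1 to 5 and 35.3 CPM in replicate 6. Its ranges overlapped even without replicate 6, and its log2 fold change was 0.32 (SE 0.11, adjusted p = 0.046). Summed connecting tubule markers were 1725 to 2832 CPM in the 48 h shams and 2262 to 3477 CPM after nephrectomy. Among these 5 markers 1 was called higher, beside 16.9% of all genes. None of the 6 principal cell markers was called, beside 32.9%, and their median log2 fold change was −0.57.

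Without replicate 6, 6 of the 10 genes were called at 48 h, all higher, against 41.6% of all genes in either direction. Scnn1a was then at 0.52 on the log2 scale, Scnn1b at 0.40, Kcnj10 at 0.39, Wnk4 at 0.39, Wnk1 at 0.33 (adjusted p = 0.015) and Scnn1g at 0.19 (adjusted p = 0.020). Replicate 6 alone against the shams stood at −0.06 for Scnn1a, −0.03 for Scnn1b, −0.02 for Kcnj10, −0.15 for Wnk4, −0.18 for Wnk1 and −0.33 for Scnn1g. With the profile score as a covariate no member was called, against 0.00% of all genes, and the log2 fold changes of Scnn1a, Kcnj10 and Wnk4 were −0.05, −0.04 and −0.16. The score was 0.64 to 0.72 in replicates 1 to 5, 0.01 in replicate 6 and −0.04 to 0.08 in the shams. Surgery and score thus cannot be told apart in replicates 1 to 5, and this fit rests largely on replicate 6. Scnn1a stayed called without any single 48 h library, and Kcnj10 lost its call without nephrectomy replicate 2, at 0.27 (adjusted p = 0.050). Leaving out sham replicate 3 or 5, or nephrectomy replicate 1, 3 or 5, left 2 called members, and leaving out nephrectomy replicate 2 left 1, Scnn1a. Where leaving out a library ended the call, Wnk4 was at 0.25 to 0.29 and Scnn1b at 0.26 to 0.34. Scnn1b passed in 8 of the 22 alternatives.

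The 5 libraries with high Scnn1a, Wnk4 and Kcnj10 at 48 h were near the levels of the 24 h libraries. The 24 h shams held 163 to 175 CPM of Scnn1a against 95.0 to 130 CPM in the 12 later shams. Wnk4 was 155 to 192 CPM in the 24 h shams and 102 to 132 CPM in the later ones, and Kcnj10 98.0 to 108 and 61.8 to 88.6 CPM. For these 3 of the 10 genes the 24 h shams and the later shams did not overlap, as was so for 25.3% of the 15093 genes past the filter. The mean of the 24 h shams was 1.54 times that of the later shams for Scnn1a, 1.52 times for Wnk4, 1.43 times for Slc12a1 and 1.34 times for both Kcnj10 and Wnk1. For Scnn1b that ratio was 1.18, for Kcnj1 1.12, for Stk39 0.97, for Slc12a3 0.95 and for Scnn1g 0.88. The time after surgery and the labelled batch cannot be told apart in this difference between shams.

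**Figure D2:**
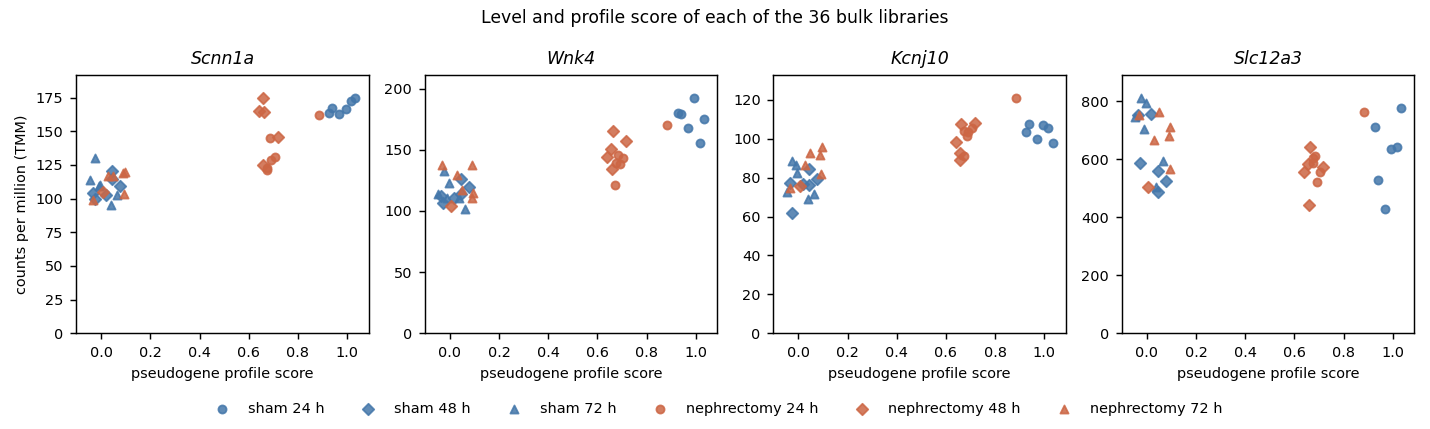
TMM-normalized CPM of Scnn1a, Wnk4, Kcnj10 and Slc12a3 (y axis) against the pseudogene profile score (x axis, no unit) in the 36 bulk libraries, coloured by surgery and shaped by time. For the first 3 genes most libraries with scores of 0.64 and above lie higher than those near 0, whatever their surgery (Scnn1a 122 to 175 CPM in the former and 95.0 to 130 CPM in the latter), and 48 h nephrectomy replicate 6 sits with the shams at a score of 0.01, while Slc12a3 spans 428 to 810 CPM with no such division.

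The remaining 6 genes were not called over all 48 h libraries. Slc12a1 was 670 to 1675 CPM in shams and 593 to 1254 CPM after nephrectomy, and its log2 fold change was −0.29 (SE 0.21, adjusted p = 0.30), the widest error of the 10. Slc12a3 was 486 to 755 CPM in shams and 443 to 641 CPM after nephrectomy, at −0.17 (SE 0.12, adjusted p = 0.29). The values overlapped for both. Summed thick limb markers were 4459 to 6112 CPM in shams and 3491 to 4928 CPM after nephrectomy. Of these 7 markers 3 were called higher and 1 lower, beside 16.9% and 16.0% of all genes, with a median log2 fold change of 0.28. Wnk1 was 351 to 487 CPM in shams and 369 to 621 CPM after nephrectomy, at 0.23 (SE 0.11, adjusted p = 0.12). Scnn1g differed by 0.10 (SE 0.09), Kcnj1 by −0.03 (SE 0.09) and Stk39 by −0.17 (SE 0.11). The Kcnj1 call of 24 h was thus not made at 48 h, and the difference between those effects, −0.23 (SE 0.12), had an adjusted p of 0.12.

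At 72 h none of the 10 genes was called by edgeR, by DESeq2 or by limma voom, and none had an unadjusted edgeR p under 0.05. The background was low, 1.71% of 14556 genes called. Log2 fold changes of the 10 genes lay between −0.03 and 0.19. Slc12a1 was 901 to 1168 CPM in shams and 856 to 1355 CPM after nephrectomy, and stood highest of the 10 at 0.19 (SE 0.11, adjusted p = 0.40). Kcnj1 was 178 to 216 and 172 to 253 CPM, at 0.14 (SE 0.08, adjusted p = 0.41). Kcnj10 was 69.0 to 88.6 and 74.5 to 95.8 CPM, at 0.14 (SE 0.07, adjusted p = 0.35). The groups overlapped for all 10 genes, while they did not for 1.95% of all genes. Scnn1a, the gene with the lowest p at 24 h and at 48 h, was 95.0 to 130 CPM in shams and 98.8 to 120 CPM after nephrectomy, at 0.02 (SE 0.07, adjusted p = 0.92). Slc12a3 stood at −0.01 (SE 0.11) and Stk39 at 0.04 (SE 0.07).

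**Figure D3:**
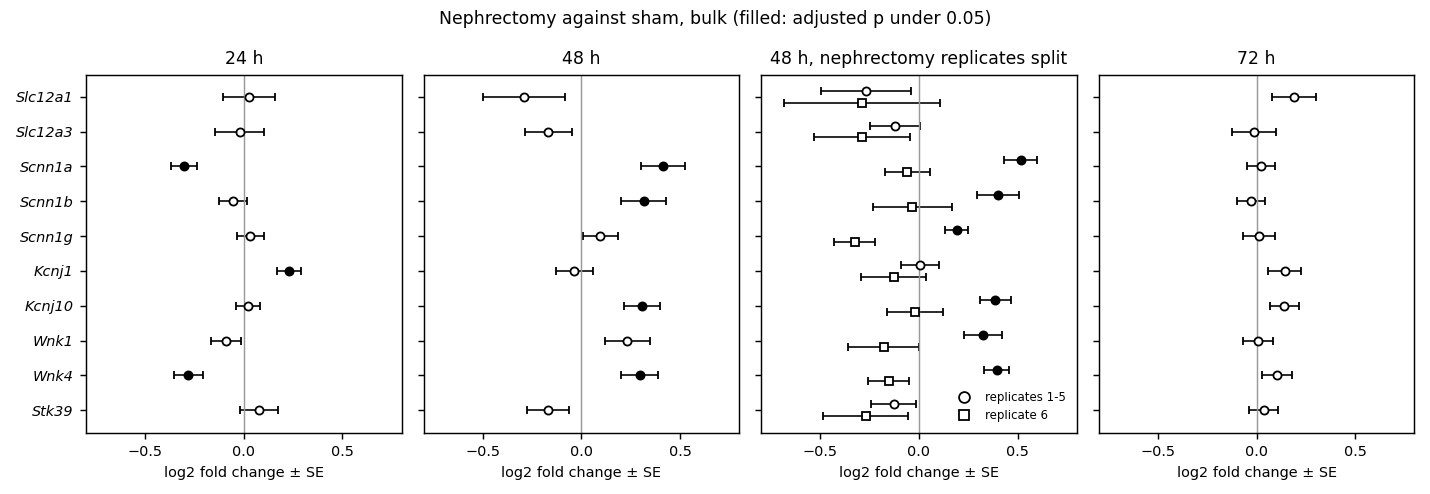
Log2 fold change of nephrectomy over sham with its SE (x axis) for each of the 10 genes (y axis) at 24, 48 and 72 h, with filled points for an adjusted p under 0.05. The third panel splits 48 h into nephrectomy replicates 1 to 5 (circles, 6 filled) and replicate 6 alone against the same shams (squares, a single library).

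The nephrectomy effect itself was compared between times in a fit of all 36 libraries. From 24 to 48 h the effect became more positive for 5 of the 10 genes: Scnn1a, Scnn1b, Kcnj10, Wnk1 and Wnk4. The background was 37.0% of 15093 genes, and 19.3% more positive. The change was largest among the 10 for Scnn1a, at a log2 difference of 0.75 (SE 0.13, adjusted p = 2.5e-05), and for Wnk4, 0.61 (SE 0.12, adjusted p = 0.00015). Wnk1 changed by 0.35 (SE 0.13), Scnn1b by 0.40 (SE 0.13) and Kcnj10 by 0.32 (SE 0.11). From 48 to 72 h the effect on Scnn1a alone among the 10 passed the test, against 14.6% of all genes, and dropped by 0.40 (SE 0.13, adjusted p = 0.029). From 24 to 72 h Wnk4 alone among the 10 passed, against 4.15% of all genes, with a change of 0.40 (SE 0.12, adjusted p = 0.045). That call held in 3 of 7 alternatives, and the adjusted p was 0.10 with no filter on low counts, 0.068 with the replicate block and 0.050 without mitochondrially encoded genes. Both cotransporter genes had wider errors: from 48 to 72 h the change was 0.47 for Slc12a1 (SE 0.24, adjusted p = 0.20) and 0.15 for Slc12a3 (SE 0.18, adjusted p = 0.64). Without 48 h nephrectomy replicate 6, 5 members passed from 24 to 48 h, against 41.6% of all genes, and 3 from 48 to 72 h (Scnn1a, Scnn1b and Wnk4), against 24.8%. With replicate 6 as the only 48 h nephrectomy library, the change from 24 to 48 h was 0.26 for Scnn1a and 0.14 for Wnk4. It was 0.03 for Scnn1b, −0.03 for Kcnj10 and −0.08 for Wnk1, and from 48 to 72 h Scnn1a changed by 0.08. With the profile score as a covariate no member passed in any of the 3 comparisons between times. In the 2 differences that use 24 h, time and labelled batch cannot be told apart.

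The wider pathway was read from 4 lists with 36 genes, of which 34 could be tested at each time. They hold the chloride channels and the sodium pump that complete salt uptake, regulators of the kinase cascade, genes of the aldosterone response and of ENaC processing, and other potassium channels and exchangers of these segments. At 24 h 3 of the 34 were called higher and 6 lower, beside 14.2% and 13.1% of all genes. At 48 h 7 were called higher and 3 lower, beside 16.9% and 16.0%. At 72 h 1 was called higher, beside 1.21%, and none lower, beside 0.502%.

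Among chloride channels and pump genes, 1 of 8 was called higher and 3 lower at 24 h, and 2 higher and none lower at 48 h. The shares of all genes called higher and lower were 14.2% and 13.1% at 24 h, and 16.9% and 16.0% at 48 h. Fxyd2, the gamma regulator of the pump, was 1069 to 1154 CPM in 48 h shams and 1342 to 2706 CPM after nephrectomy, at 1.02 (SE 0.13, adjusted p = 0.00035). Replicate 6 alone gave 0.28. At 72 h none of the 8 was called, and Atp1b1, the beta subunit of the pump, had the lowest p, at 0.09 (adjusted p = 0.45).

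Of the 8 kinase cascade regulators 1 was called higher at 24 h and 2 at 48 h, none lower and none at 72 h. Beside this, 14.2% of all genes were called higher at 24 h and 16.9% at 48 h. Cab39l, a scaffold that activates SPAK, rose from 51.4 ± 2.07 to 57.8 ± 2.73 CPM (SD, n = 6) at 24 h, without overlap between groups, by 0.18 in log2 terms (SE 0.05, adjusted p = 0.013). At 48 h Wnk2 rose from 3.54 ± 0.29 to 5.39 ± 1.24 CPM, at 0.59 (adjusted p = 0.010). Ppp1r1a, an inhibitor of a phosphatase that acts on NCC, rose from 103 ± 19.4 to 149 ± 28.8 CPM at 48 h, at 0.51 (adjusted p = 0.015). Replicate 6 alone gave −0.09 for Wnk2 and 0.01 for Ppp1r1a. At 72 h Ppp1r1a had the lowest p of the list, at 0.16 (adjusted p = 0.33).

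Of the 10 aldosterone response and ENaC processing genes none was called higher and 2 lower at 24 h, and 2 higher and 2 lower at 48 h. Over all genes the shares were 14.2% higher and 13.1% lower at 24 h, and 16.9% and 16.0% at 48 h. Nedd4l, the ubiquitin ligase that removes ENaC from the membrane, fell from 112 ± 7.96 to 91.5 ± 10.1 CPM (SD, n = 6) at 24 h, by 0.28 in log2 terms (SE 0.07, adjusted p = 0.0097). Prss8, a protease that cleaves ENaC, fell by 0.17 at 24 h (SE 0.06, adjusted p = 0.039) and rose by 0.52 at 48 h (SE 0.12, adjusted p = 0.0063). Furin, another protease of ENaC, was 192 to 224 CPM in 48 h shams and 236 to 306 CPM after nephrectomy, without overlap, at 0.38 (SE 0.07, adjusted p = 0.0016). Replicate 6 alone gave 0.10 for Prss8 and 0.15 for Furin. At 72 h none was called, and Nr3c2, the mineralocorticoid receptor, had the lowest p, at −0.24 (SE 0.09, adjusted p = 0.21).

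Of the 10 other channels and exchangers 8 could be tested, and 1 was called higher and 1 lower at both 24 and 48 h. Called higher were 14.2% of all genes at 24 h and 16.9% at 48 h, and called lower 13.1% and 16.0%. Slc9a2, a sodium-proton exchanger of the thick limb and distal tubule, was the single gene of the 4 lists called at all 3 times. It was 32.8 to 44.7 CPM in 24 h shams and 45.9 to 56.0 CPM after nephrectomy, without overlap, at 0.41 (SE 0.08, adjusted p = 0.0016). At 48 h it was at 0.33 (SE 0.12, adjusted p = 0.044), and replicate 6 alone gave 0.68. At 72 h it was 33.6 to 43.2 CPM in shams and 40.0 to 55.1 CPM after nephrectomy, at 0.35 (SE 0.08, adjusted p = 0.047). Slc26a4, the chloride-bicarbonate exchanger pendrin of intercalated cells, fell by 0.22 at 24 h (SE 0.06, adjusted p = 0.017) and by 0.60 at 48 h (SE 0.11, adjusted p = 0.0020). Of 5 intercalated cell markers, the calls were 2 lower at 24 h and 1 lower at 48 h, beside 13.1% and 16.0% of all genes called lower. Slc26a4 is itself on that marker list.

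With the profile score as a covariate in the fit of each single time, none of the pathway genes with values above was called. In those fits 0.510% of all genes were called at 24 h, 0.00% at 48 h and 0.714% at 72 h. As for the members, surgery and score are hard to tell apart in the fits of 24 and 48 h. At 24 h the log2 fold changes were then −0.08 for Slc26a4, 0.14 for Cab39l, −0.03 for Nedd4l and −0.11 for Prss8. At 48 h they were −0.19 for Slc26a4, 0.33 for Fxyd2, −0.07 for Wnk2, −0.04 for Ppp1r1a, 0.20 for Prss8 and 0.15 for Furin. Slc9a2 stood at 0.41, 0.62 and 0.22 at 24, 48 and 72 h, with adjusted p of 0.55, 0.24 and 0.22. With the score in the fit of all 36 libraries, added after the data were seen, Slc26a4 was called at 24 h and Slc9a2 at 72 h. Slc26a4 was then at −0.41 (adjusted p = 0.013) and Slc9a2 at 0.38 (adjusted p = 0.034). The part of the score in these results was not tested further.

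The nuclei showed in which cells the 10 genes were transcribed. The 4 mice gave 5342 and 2641 sham nuclei and 5151 and 3366 nephrectomy nuclei, with median totals of 7581 to 9909 UMIs (unique molecular identifiers, the counted transcripts) per nucleus. Of all cell barcodes 18 occurred in more than 1 library. Levels are CPM of the counts summed over the nuclei of a class in a mouse, and nuclei carry the class that the authors' annotation gives them. The classes used are thick limb (MTAL, CTAL1, CTAL2), macula densa (MD), distal convoluted tubule (DCT), connecting tubule (CNT), principal cells (CPC, MPC) and intercalated cells (ICA, ICB). Markers of the thick limb were highest in a thick limb or macula densa class for 6 of 7 genes, and the others were highest in a class of their own name for 4 of 5 distal convoluted tubule, 4 of 5 connecting tubule, 6 of 6 principal cell and 5 of 5 intercalated cell genes. The RNA of other cells differed between the labelled batches. In PTS1 nuclei of the proximal tubule, which should lack NKCC2, Slc12a1 was 46.0 and 57.2 CPM in the batch 3 mice and 1053 and 1545 CPM in the batch 4 mice. A level outside the home class of an abundant gene is read here against that background.

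Slc12a1 was the gene of the thick limb and macula densa classes. Its mean over the 4 mice was 17335 CPM in MTAL, 17196 in CTAL2, 15734 in MD and 15090 in CTAL1, with overlapping ranges between neighbours in that order. The next class, EC1, had 1565 CPM, and CTAL1 was above it in every mouse. Slc12a3 was the gene of the distal convoluted tubule class, at a mean of 12380 CPM in DCT. No other class exceeded a mean of 753 CPM, and DCT lay above that class in all 4 mice.

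The ENaC genes differed among themselves. Scnn1b was 773 CPM in CNT and 635 CPM in CPC, with overlapping ranges, then 195 CPM in ICA, which lay below CPC in every mouse. Scnn1g was 439 CPM in CNT and 308 CPM in CPC, again overlapping, and then 36.2 CPM in the next class. Scnn1a was spread more evenly, at 164 CPM in CNT, 151 in ICB, 138 in CPC, 125 in DCT, 115 in ICA and 104 in CTAL2, and the ranges of each neighbouring pair overlapped. The MPC class, also named for principal cells, was low in all 3: 2.5 to 31.1 CPM for Scnn1a, 9.4 to 31.1 CPM for Scnn1b and 2.5 to 17.5 CPM for Scnn1g.

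Of the potassium channels, Kcnj1 was found at similar levels along the distal tubule. Means were 422 CPM in MD, 352 in CTAL2, 349 in DCT, 329 in CTAL1, 326 in MTAL and 301 in CNT, all overlapping their neighbour, and CNT lay above CPC in every mouse. Kcnj10 was 109 CPM in CNT, 96.4 in CTAL1, 94.8 in DCT, 51.1 in CPC and 36.0 in MTAL. In CTAL2 Kcnj10 was only 4.7 to 16.2 CPM, while in CTAL1 it was 85.6 to 109 CPM, so the 2 cortical thick limb classes did not overlap for this gene. Wnk1 also differed between them, at 1310 to 3326 CPM in CTAL1 and 517 to 787 CPM in CTAL2.

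Wnk1 was highest in DCT, at a mean of 4280 CPM, then 2258 in CNT, 1989 in CTAL1 and 1628 in MD. DCT was above CNT in every mouse. The kidney transcribes a short form of Wnk1 that lacks the kinase domain in the distal convoluted tubule, and counts per gene do not separate the forms. Wnk4 was 308 CPM in MD, 290 in DCT and 245 in CTAL2, with overlapping ranges, and CTAL2 lay above MTAL, at 191 CPM, without overlap. Stk39 was 996 CPM in MD, 763 in CPC, 759 in MTAL, 721 in CTAL2 and 705 in DCT, and no neighbours in this order were separated. The median over the 15 classes other than the thick limb, MD, DCT, CNT and principal cell classes was 220 CPM for Stk39, 455 CPM for Wnk1 and 49.0 CPM for Wnk4. The intercalated classes ICA and ICB are among those 15.

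**Figure D4:**
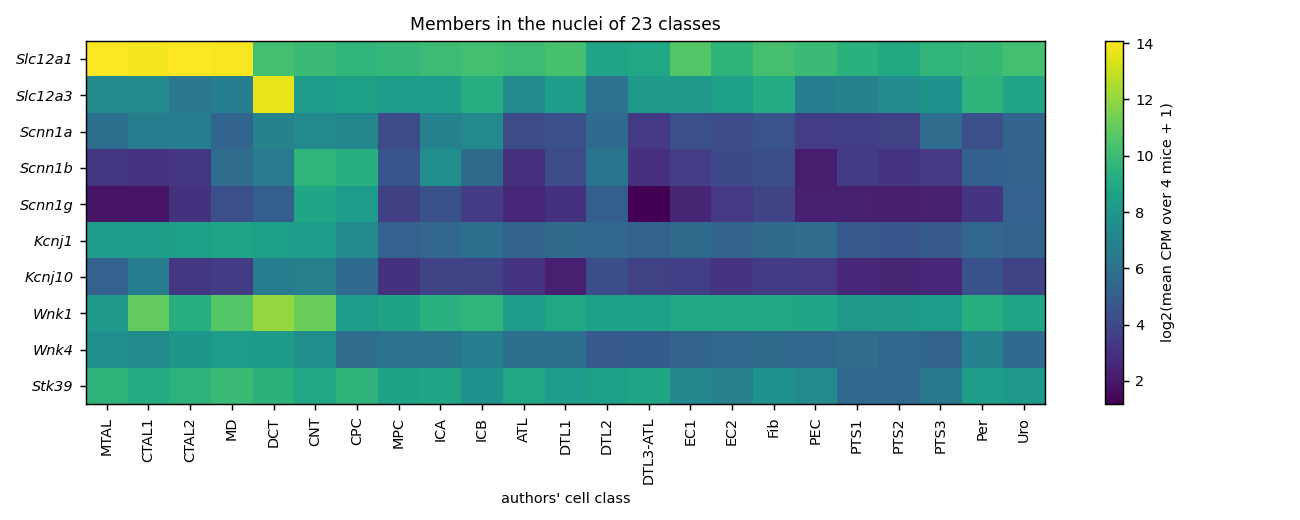
Mean level over 4 mice of each of the 10 genes (rows) in the 23 classes with at least 10 nuclei in every mouse (columns), as log2(CPM + 1) by colour. Slc12a1 stands out in MTAL, CTAL1, CTAL2 and MD, Slc12a3 in DCT, Scnn1b and Scnn1g in CNT and CPC, and Wnk1 in DCT, CNT and CTAL1.

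For each member the genes with the most alike pattern were found by Pearson's r of log2(CPM + 1) over the 23 classes, among 8203 genes that reach 50 CPM in a class. These r are descriptions, and the classes share mice, library depth and background RNA. Scnn1b and Scnn1g were each other's nearest gene, at r = 0.93, which is why their promoters are printed together above, and Cog7 was second for both, at 0.92 and 0.90. Slc12a1 was most alike to Gm14002 (0.94) and Pdzrn4 (0.92), and Slc12a3 to Tsc22d1 (0.75) and Slc8a1 (0.71). Scnn1a was most alike to Oprm1 and Ipcef1 (0.93 and 0.92), Kcnj1 to Nudt4 and Syt17 (0.94 and 0.91), and Kcnj10 to Tmem52b and 9330159M07Rik (0.83 and 0.80). Wnk1 was most alike to Klhl3 (0.86) and Ier3 (0.86), Wnk4 to Cwh43 and Syt17 (0.91 and 0.90), and Stk39 to Arfgef1 and Ildr1 (0.89 and 0.88). Klhl3, which encodes the adaptor that marks WNK kinases for degradation, is on the list of cascade regulators.

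With 2 mice a group and the labelled batch not in the fit, no member was called between nephrectomy and sham in any of the 7 distal classes. None had an unadjusted p under 0.05 in that fit. The tests covered 68 of the 70 gene and class pairs, the others failing the filter, and DESeq2 called none either. The background was 0.00% of genes called in each of these classes and in all nuclei summed (19975 genes). The lowest unadjusted p of the 68 without the batch in the fit was 0.082. The SE of these log2 fold changes ran from 0.19 to 2.00, with a median of 0.44, and with the labelled batch as a block from 0.12 to 0.83, with a median of 0.18. The values are therefore given by mouse and by batch.

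The cotransporter genes differed little within a batch in MTAL and DCT, while Slc12a1 in MD was lower in 1 nephrectomised mouse. In MTAL, Slc12a1 was 18662 CPM in the sham and 19072 CPM in the nephrectomised mouse of batch 3, and 15927 and 15677 CPM in those of batch 4. In DCT, Slc12a3 was 14597 and 15433 CPM in batch 3, and 9403 and 10088 CPM in batch 4. Within each batch the mice thus lay close together in these 2 classes, while the batches lay apart. In MD, Slc12a1 was 18067 and 17490 CPM in batch 3, and 18222 and 9156 CPM in batch 4, from 10 to 16 nuclei per mouse. The log2 fold change was 0.01 for Slc12a1 in MTAL (SE 0.42) and 0.09 for Slc12a3 in DCT (SE 0.55).

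For the ENaC genes in CNT, Scnn1b was 866 CPM in the sham and 1089 CPM in the nephrectomised mouse of batch 3, and 522 and 616 CPM in batch 4. Scnn1a was 213 and 191 CPM in batch 3, and 145 and 109 CPM in batch 4. Scnn1g was 616 and 535 CPM in batch 3, and 335 and 273 CPM in batch 4. In CNT, Scnn1b was thus higher in the nephrectomised mouse of both batches, and Scnn1a and Scnn1g were lower in both, none past the test. The log2 fold changes were 0.30 (SE 0.46), −0.25 (SE 0.41) and −0.24 (SE 0.50). In CPC, Scnn1a was 140 and 123 CPM in batch 3 and 168 and 119 CPM in batch 4, lower in both nephrectomised mice, at −0.34 (SE 0.28). In DCT the batches differed in direction for Scnn1a, at 119 and 177 CPM in batch 3 and 104 and 98.9 CPM in batch 4. Over all nuclei summed, Scnn1a, called lower in bulk at 24 h, was 35.0 and 40.3 CPM in batch 3 and 52.3 and 55.2 CPM in batch 4. That sum was higher in the nephrectomised mouse of both batches, at 0.13 (SE 0.29). The sum also holds nuclei outside the distal classes. In PTS3 nuclei of the proximal tubule, Scnn1a was 39.6 and 59.1 CPM in batch 3, and 51.5 and 64.4 CPM in batch 4. PTS3 was thus higher in both nephrectomised mice too, and its part in the sum was not tested.

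Kcnj1, called higher in bulk at 24 h, was not higher in both batches in any of the 7 distal classes. In CTAL1 it was 376 CPM in the sham and 308 CPM in the nephrectomised mouse of batch 3, and 352 and 281 CPM in batch 4, lower in both, at −0.30 (SE 0.21, adjusted p = 1.00). In DCT Kcnj1 was 484 and 416 CPM in batch 3, and 248 and 246 CPM in batch 4. Over all nuclei summed it differed by −0.04 (SE 0.25). Kcnj10 in MTAL was 33.4 and 53.1 CPM in batch 3, and 22.0 and 35.7 CPM in batch 4, higher in both nephrectomised mice by a like ratio, at 0.67 (SE 0.37, adjusted p = 1.00). In DCT Kcnj10 was 103 and 134 CPM in batch 3, and 65.0 and 76.8 CPM in batch 4.

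Wnk4, called lower in bulk at 24 h, had opposite directions in neighbouring classes. In DCT it was 364 CPM in the sham and 302 CPM in the nephrectomised mouse of batch 3, and 270 and 224 CPM in batch 4, lower in both. In CNT Wnk4 was 149 and 268 CPM in batch 3, and 147 and 193 CPM in batch 4, higher in both, at 0.64 (SE 0.29, unadjusted p = 0.088). The difference between classes was not tested. Over all nuclei summed, Wnk4 was 69.0 and 72.3 CPM in batch 3 and 110 and 109 CPM in batch 4, at 0.01 (SE 0.34). Wnk1 in DCT was 6834 and 5291 CPM in batch 3, and 2753 and 2243 CPM in batch 4, at −0.35 (SE 0.71). In CTAL1 Wnk1 was 1741 and 3326 CPM in batch 3, and 1310 and 1580 CPM in batch 4, at 0.69 (SE 0.44). Stk39 in MPC was 340 and 515 CPM in batch 3, and 303 and 472 CPM in batch 4, higher in both nephrectomised mice. Its log2 fold change was 0.62 (SE 0.28), with the lowest p of the 68 without the batch in the fit. In DCT Stk39 was 884 and 968 CPM in batch 3, and 483 and 485 CPM in batch 4.

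With the labelled batch as a block, 1 of the 68 pairs was called, Slc12a3 in MPC, at −1.44 (adjusted p = 0.0018), beside 0.382% of the 12035 genes tested in that class. Slc12a3 in MPC was 80.3 CPM in the sham and 16.4 CPM in the nephrectomised mouse of batch 3, and 776 and 393 CPM in batch 4. In PTS1 nuclei, which should lack NCC, Slc12a3 was 13.3, 11.9, 307 and 135 CPM in the same order, also lower in the nephrectomised mouse of both batches. The level in MPC was above that in PTS1 in each of the 4 mice. In CPC, the other principal cell class, Slc12a3 was 16.4, 15.7, 897 and 510 CPM in that order. That was below MPC in both mice of batch 3 and above it in both of batch 4. Slc12a1, a thick limb gene, was 371 and 69.3 CPM in MPC in batch 3, and 1227 and 1868 CPM in batch 4. The part of background RNA in the MPC level of Slc12a3 was not tested. The share of DCT nuclei, the source of Slc12a3, was 5.95% and 8.63% in the shams and 4.87% and 5.79% after nephrectomy, with exact 95% binomial intervals of 5.33% to 6.62%, 7.59% to 9.77%, 4.30% to 5.50% and 5.03% to 6.64%. The intervals cover counting error only, and the part of these shares in the Slc12a3 call was not tested. Summed over all nuclei, Slc12a3 stood at −0.25 (SE 0.42) without the block.

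**Figure D5:**
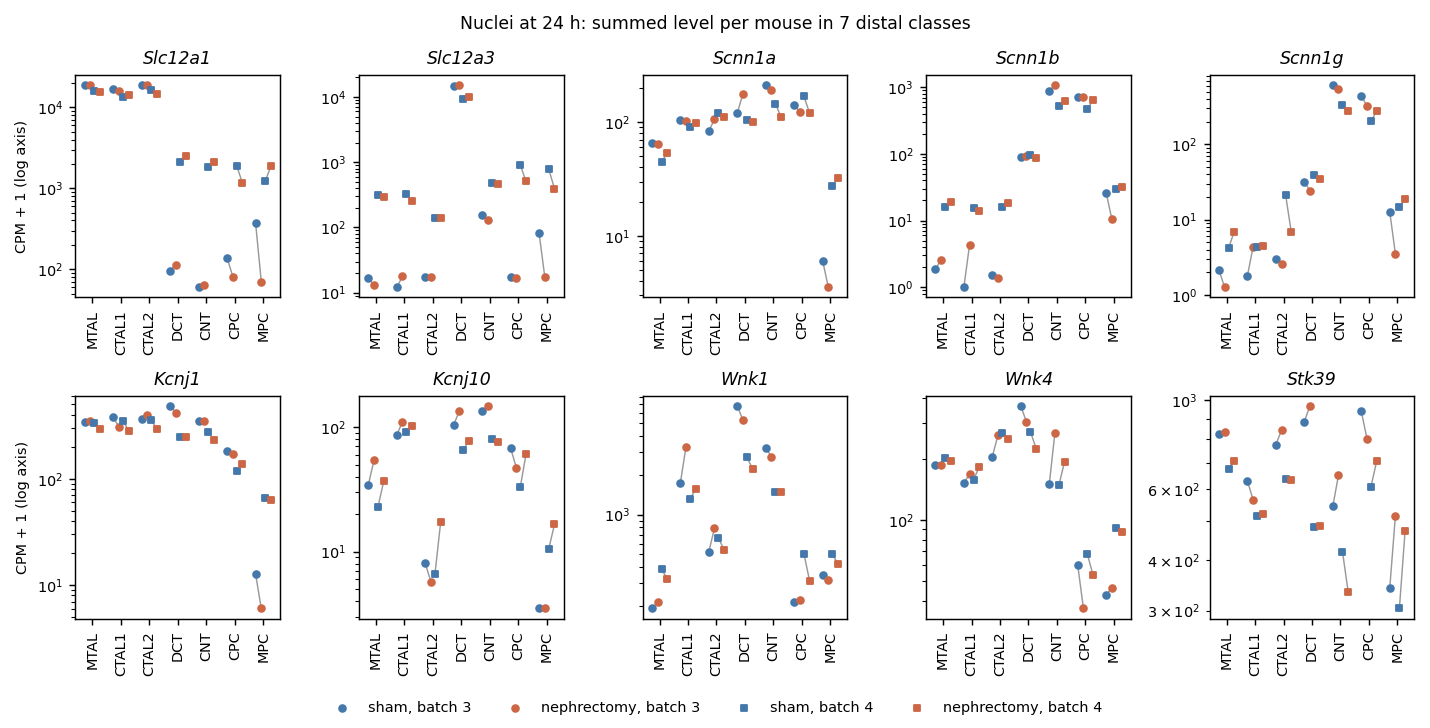
Level of each of the 10 genes in 7 distal classes in the 4 mice of the nucleus data (y axis, CPM + 1 on a log axis), with sham in blue, nephrectomy in orange, circles for batch 3 and squares for batch 4, and a line joining the mice of a batch. Slc12a1 outside the thick limb is lower in the batch 3 mice than in the batch 4 mice in all 4 classes shown.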

How the data were processed

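The bulk values are estimated counts per Ensembl gene as deposited by the authors, not normalized; the submitters' processing notes name the build GRCm39, Salmon 1.5.0, FastQC 0.11.8 and R 4.10. The nucleus values are estimated counts of UMIs as deposited, with alevin, Seurat and the build mm10 named in those notes without versions. Salmon and alevin share reads between like transcripts, so 34.1% of bulk values were not whole, and counts were rounded before testing.

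Groups, times, batches and replicate numbers came from the labels. The members and lists were chosen with earlier results of these data known. Per list and time the text names the 2 called genes of lowest p, or the 1 of lowest p where none was called, and per member the 2 genes of highest r over classes. Some genes that this rule names are not reported here. Bulk IDs were paired with symbols through GENCODE M21 (28340 of 28467), whose build is that of the nuclei, so coordinates are on mm10.

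Tests used edgeR 4.0.16 (quasi-likelihood, filterByExpr, TMM, two-sided) in R 4.3.3 over all genes, within the 12 libraries of a time or, for differences between times, all 36. The SE is the log2 fold change over the square root of F. Bulk CPM are scaled by TMM over 36 libraries; nucleus CPM are per summed total of a class and mouse, in the 30-class form of the annotation, for 23 classes with at least 10 nuclei in every mouse. No doublet caller was run, since nuclei had been filtered (lowest total 1755 UMIs) in a way not given in the sources used here. Nucleus replicate numbers mark the labelled batch shared by a sham and a nephrectomised mouse (r of their deviations 0.71 to 0.87). Each library counts as 1 replicate, since no bulk pair agreed within sampling noise, and the labels give each a mouse number of its own. The test code was run on simulated counts with the same spread for every gene and no batch, score difference or outlying library. That run does not show how the test performs on these data. DESeq2 1.42.0, limma 3.58.1 voom, no filter, a replicate block, no mitochondrially encoded genes, the profile covariate and leaving out each library were alternatives.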

Additional observations from a re-analysis of the deposited data

Results flagged for a closer look

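Of the 60 combinations of gene and bulk group, 2 held a library far from the others of its group, where chance alone gives about 1 in 20. Kcnj10 was 61.8 CPM in 48 h sham replicate 6, below the other shams of that time. Slc12a1 was 1168 CPM in 72 h sham replicate 6, above the others. The effect of nephrectomy differed between 24 and 48 h by 0.75 on the log2 scale for Scnn1a, 0.40 for Scnn1b, 0.61 for Wnk4, 0.32 for Kcnj10 and 0.35 for Wnk1, each past the test in the fit of all 36 libraries. It differed between 48 and 72 h by −0.40 for Scnn1a, and between 24 and 72 h by 0.40 for Wnk4. The 24 h libraries belong to another labelled batch than those of 48 and 72 h, and the profile score of the libraries moved with these differences; its part in them was not tested beyond the covariate fits.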

How the results depend on the processing

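At 72 h and over all nuclei summed, 0 members were called under every alternative run. DESeq2's test, its size factors, voom, no filter, the replicate block and no mitochondrially encoded genes kept 3 calls at 24 h and gave 3 to 5 at 48 h, and a fit of all 36 libraries gave 2 at 24 h, without Kcnj1, and 5 at 48 h. With the profile covariate the calls were 0 at 24 h, 0 at 48 h and 0 in each of the 3 differences between times; in the fit of all 36 libraries with that covariate, added after seeing the data, they were 1 at 24 h and 0 at 48 h. Without 48 h nephrectomy replicate 6 the calls were 6 at 48 h, 5 for 48 minus 24 h and 3 for 72 minus 48 h. Leaving out each library in turn gave 3 calls at 24 h and 1 to 6 at 48 h. For 48 minus 24 h no filter gave 3 in place of 5. For 72 minus 48 h DESeq2's test gave 2 and voom 3 in place of 1. For 72 minus 24 h voom gave 2, and no filter, the replicate block and no mitochondrially encoded genes each gave 0, in place of 1.

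The profile covariate turned the log2 value of Scnn1a at 24 h to 0.073 (SE 0.12), in a fit that cannot decide between surgery and score. At 48 h it gave −0.045 for Scnn1a, −0.042 for Kcnj10 and −0.16 for Wnk4, and in the 36-library fit −0.034, −0.037 and −0.088. For 48 minus 24 h it gave −0.052 for Scnn1b, −0.22 for Kcnj10 and −0.19 for Wnk1, and for 72 minus 48 h 0.018 for Scnn1a. Replicate 6 alone gave −0.058 for Scnn1a, −0.034 for Scnn1b, −0.020 for Kcnj10 and −0.15 for Wnk4 at 48 h, −0.031 for Kcnj10 and −0.078 for Wnk1 for 48 minus 24 h, and 0.080 for Scnn1a for 72 minus 48 h. The cause of these changes was not tested.

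Bulk replicate numbers are shared between groups but do not pair the mice: correlations of same-numbered deviations ran from −0.29 to 0.13, and not every library correlated best with its own number. With the replicate block the members called were 3 at 24 h, 3 at 48 h, 0 at 72 h, 4 for 48 minus 24 h and 1 for 72 minus 48 h. In the nuclei the block called 1 pair of gene and class in place of 0 and changed no other call. The 33-class annotation was not run, since the distal classes are the same in it. With 2 mice a group, the median SE of the nucleus values was 0.44 in log2 without the block and 0.18 with it.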
